A study of Mus musculus with 4 samples.

Results

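Genes that neutrophils use to fill their granules and to leave the marrow were measured in whole embryonic lung at E18.5. The set holds 10 genes, all with exactly 1 probe set that carries their symbol alone, out of 19938 genes measured: *S100a8*, *S100a9*, *Ltf*, *Camp*, *Ngp*, *Mpo*, *Elane*, *Ctsg*, *Prtn3* and *Cxcr2*. They were chosen by symbol. Lungs came from C57BL/6 embryos that were *Hmga2*-/- (KO, 2 arrays) or *Hmga2*+/+ (WT, 2 arrays), untreated and of the same age, with 1 Affymetrix array for each sample. The loss of *Hmga2* is present throughout the embryo from the start and is not confined to the lung. Both WT titles carry 1 group name and differ in the replicate number alone, and whether an array holds RNA of 1 embryo or of several is not stated there or in the methods. The titles call the 2 arrays of each genotype biological replicates, so P values measure the spread between these biological samples.

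Neutrophils are built in steps. Precursors first pack azurophil granules with myeloperoxidase and the serine proteases elastase, cathepsin G and proteinase 3, then specific granules with lactoferrin and cathelicidin, and the transcripts of the early proteins are shut off before the cell matures. The cytosol of mature cells is filled with the calcium-binding pair S100A8 and S100A9, also called calprotectin, and CXCR2 on their surface reads the chemokines that call them into tissue. In bulk RNA, fewer cells of a type and less RNA per cell cannot be told apart.

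To show the sequences behind the neighbouring genes of the set, the start regions of *S100a8* and *S100a9*, which are neighbours on chromosome 3, are set beside those of *Elane* and *Prtn3*, which are neighbours on chromosome 10. Each window runs 5′ to 3′ from 250 bases before to 50 bases after the start in RefSeq (GRCm38.p6), 300 bases in all. Capitals mark every match of AGGAAGT, a core bound by PU.1 and other ETS factors, AACGG, a core bound by MYB, TTNNGNAA, a loose C/EBP-like pattern, and TATAA, searched on both strands.
S100a8 (chr3:90668821-90669120, plus strand): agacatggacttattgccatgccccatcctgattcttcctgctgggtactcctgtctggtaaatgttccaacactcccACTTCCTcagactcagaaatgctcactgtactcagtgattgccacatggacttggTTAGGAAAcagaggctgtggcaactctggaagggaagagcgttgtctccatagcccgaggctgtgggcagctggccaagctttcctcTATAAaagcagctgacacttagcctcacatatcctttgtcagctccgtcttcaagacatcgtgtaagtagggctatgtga
S100a9 (chr3:90695672-90695971, minus strand): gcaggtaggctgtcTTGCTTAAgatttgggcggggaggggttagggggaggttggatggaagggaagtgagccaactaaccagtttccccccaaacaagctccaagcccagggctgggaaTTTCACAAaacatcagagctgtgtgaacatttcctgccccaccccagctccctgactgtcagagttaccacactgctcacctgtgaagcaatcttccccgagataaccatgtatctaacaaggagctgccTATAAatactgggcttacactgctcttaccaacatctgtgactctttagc
Elane (chr10:79886062-79886361, plus strand): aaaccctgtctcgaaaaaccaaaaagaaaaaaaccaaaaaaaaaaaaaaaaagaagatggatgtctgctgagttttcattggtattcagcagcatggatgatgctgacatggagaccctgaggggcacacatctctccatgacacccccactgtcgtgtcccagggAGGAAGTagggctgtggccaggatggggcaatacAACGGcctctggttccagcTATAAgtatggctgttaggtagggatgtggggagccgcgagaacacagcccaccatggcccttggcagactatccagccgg
Prtn3 (chr10:79879417-79879716, plus strand): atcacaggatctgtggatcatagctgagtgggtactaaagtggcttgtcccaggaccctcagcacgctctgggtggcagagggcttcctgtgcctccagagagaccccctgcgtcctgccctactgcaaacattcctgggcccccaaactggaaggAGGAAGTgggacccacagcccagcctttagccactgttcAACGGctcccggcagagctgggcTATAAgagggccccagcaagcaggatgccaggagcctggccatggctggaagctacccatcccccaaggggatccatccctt

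All 10 members had a window. AGGAAGT or its reverse complement stood in those of *S100a8*, *Mpo*, *Elane*, *Ctsg* and *Prtn3*, 5 of 10, against 9.35% of all 32851 windows of the same length. The 4 azurophil genes were thus all among the holders, and the specific granule genes and *Cxcr2* were not. AACGG stood in *Elane* and *Prtn3*, at bases 201 and 196, against 17.4% of all windows. TATAA stood in *S100a8*, *S100a9*, *Elane*, *Ctsg* and *Prtn3* (24.9% of all windows), and TTNNGNAA in *S100a8*, *S100a9*, *Ltf* and *Ngp* (40.7%). In *Elane* and *Prtn3* the 3 patterns came in the same order, with AGGAAGT at bases 167 and 157 and TATAA at bases 220 and 219. No matches of different patterns overlapped in the members' windows. The patterns were picked with the sequences in view, and a match describes letters and no bound factor.

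The targeted gene was checked first. The *Hmga2* probe set read 9.65 and 9.39 on the arrays labelled KO and 9.35 and 9.59 on the WT arrays, in log2 units, so its groups overlap and it does not settle the labels; whether it lies in the deleted part is not known here. WT replicate 1 stood apart, correlating with the other arrays at 0.976 to 0.985 over all probe sets, where the other pairs reached 0.992 to 0.997. Surfactant protein C, which marks distal lung epithelium, read 13.98 and 14.01 on the arrays labelled KO and 14.13 and 14.05 on the WT arrays, high in both groups, with a *Sftpc* difference of −0.096 (adjusted p = 0.728 from limma) and both arrays labelled KO below the WT arrays. No detection call comes with the values, so a low one cannot be told from an unexpressed gene.

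Levels of the set were lower in KO-labelled lungs, and no member passed the test over all genes. The gap was widest for the receptor *Cxcr2* and the calprotectin genes *S100a8* and *S100a9*, smaller for *Ltf*, *Camp*, *Mpo* and *Elane*, and near 0 for *Ngp*, *Ctsg* and *Prtn3*. The median log2 difference, KO minus WT, was −0.25 over the 10 members and −0.051 over all genes. The KO-labelled mean was the lower one for all 10 members (58.8% of all genes, with 41.2% higher), except that *Ngp*, *Ctsg* and *Prtn3* turned higher when the arrays were normalized by cyclic loess. Both arrays labelled KO lay below both WT arrays for 7 of 10 members, against 31.8% of all genes (49.4% did not overlap in either direction), and the groups of the other 3 overlapped. Limma called 0 of 10 (0.782% of all genes, and 0.702% as lower), and 3 members had an unadjusted p under 0.05, all lower, as had 8.58% of all genes (5.88% were higher at that p). A 1.2-fold lower level, the fold limit of the study's pathway analysis, was passed by 4 of 10 members and by 17.1% of all genes, and a 2-fold change by 0 members (1.09% of all genes lower and 0.772% higher). An exact two-sided permutation test of 2 against 2 arrays cannot go below p = 0.333.

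**Figure D1:**
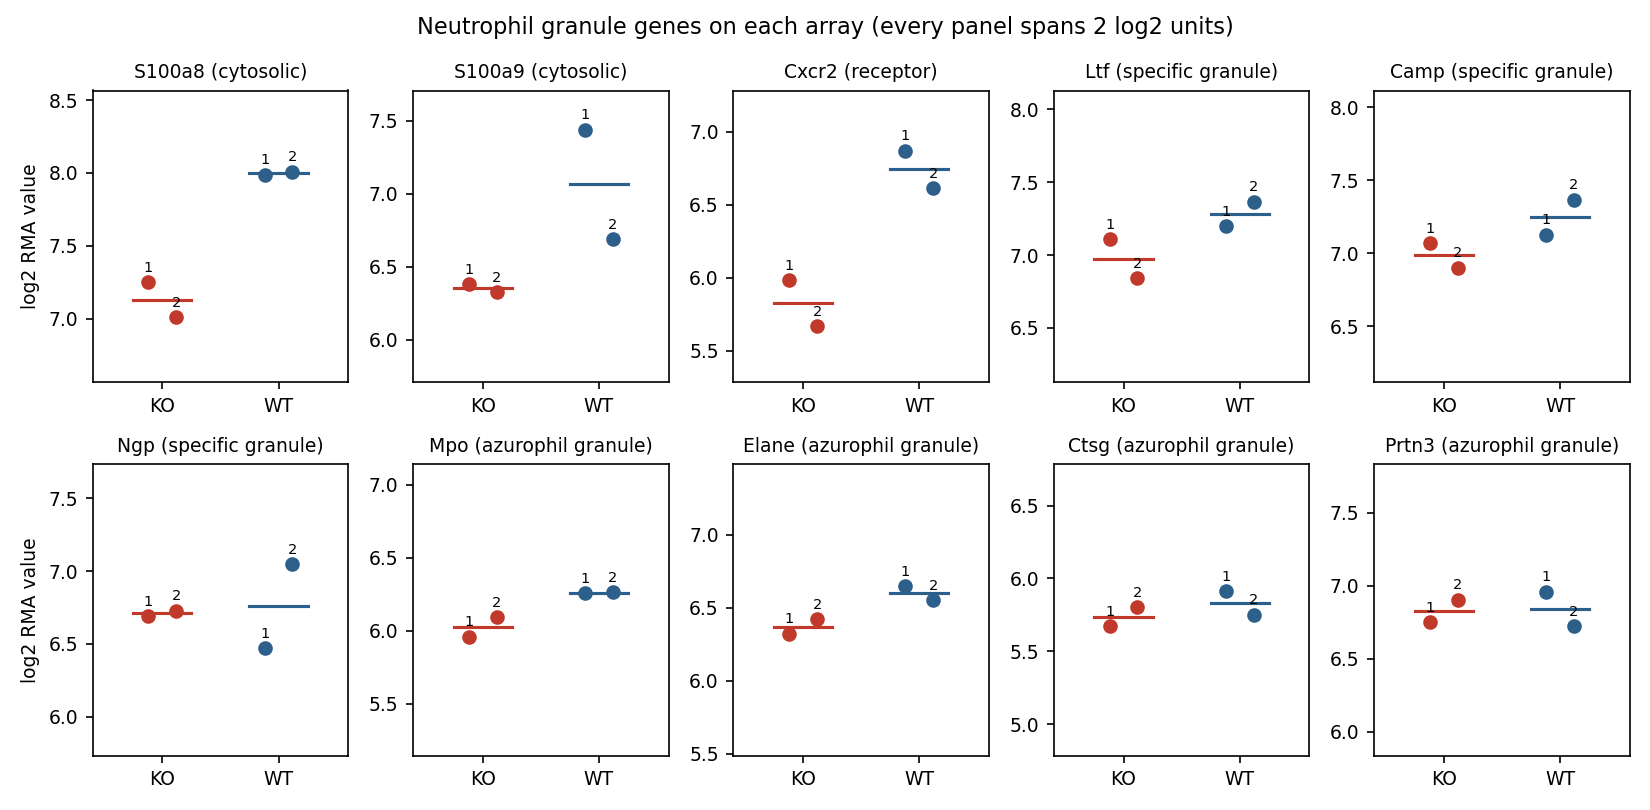
The log2 RMA value of each member on each array, with the arrays labelled KO left of the WT arrays, a bar for the group mean and the replicate number above each point; every panel spans 2 log2 units. S100a8 and Cxcr2 show the clearest gaps, S100a9 has WT arrays 0.75 apart, and the groups of Ngp, Ctsg and Prtn3 overlap.

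*S100a8*, the smaller chain of calprotectin, read 7.25 and 7.01 on the arrays labelled KO, against 7.99 and 8.01 on the WT arrays. The WT arrays lay close together and both stood above both arrays labelled KO. Its means were 7.13 ± 0.17 in the arrays labelled KO and 8.0 ± 0.015 in the WT arrays (SD, n = 2 each), a log2 difference of −0.87 (standard error 0.14), or 0.549-fold the WT level. It missed the threshold over all genes (adjusted p = 0.0606 from limma), and the side it falls on rests on the setting. It passed with cyclic loess (0.0349), with each array centred on its median (0.0421), with trend and robust moderation (0.0466) and without the dimmest 40 percent of genes (0.0370). Without KO replicate 1 or KO replicate 2 it did not pass, and over all settings tried the difference ran from −0.99 to −0.75.

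*S100a9*, which binds S100A8 in the calprotectin dimer, read 6.38 and 6.33 on the arrays labelled KO, against 7.44 and 6.69 on the WT arrays. The groups did not overlap, but WT replicate 1 alone carried much of the gap: the WT arrays differed by 0.75, about as much as the groups. The log2 difference was −0.71 (standard error 0.24, adjusted p = 0.264 from limma), which became −0.34 with WT replicate 1 left out and −1.09 with WT replicate 2 left out. The neighbouring genes of the dimer thus both had lower levels in the arrays labelled KO, *S100a8* with tight and *S100a9* with scattered WT values.

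*Cxcr2*, the receptor through which neutrophils follow ELR chemokines and leave the marrow, read 5.98 and 5.67 on the arrays labelled KO, against 6.87 and 6.61 on the WT arrays. The groups stood clear of each other by more than the spread within either. The log2 difference was −0.92 (standard error 0.17, 95% interval −1.32 to −0.51, adjusted p = 0.0809 from limma), or 0.529-fold the WT level. It passed with trend and robust moderation (adjusted p = 0.0477). It did not pass with cyclic loess (0.0598), with medians centred (0.0661), without KO replicate 1 or without KO replicate 2. When 1 array was left out the difference lay between −1.08 and −0.76. Of all genes, 1.34% had a lower difference than *Cxcr2*, 1.64% than *S100a8* and 2.55% than *S100a9*.

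Genes of the specific granules came next. *Ltf*, which encodes the iron-binding lactoferrin and is also made by glandular epithelia, read 7.11 and 6.84 on the arrays labelled KO, against 7.20 and 7.37 on the WT arrays. Its difference was −0.31 (standard error 0.15, adjusted p = 0.410 from limma), with KO replicate 1 and WT replicate 1 lying only a little apart. *Camp*, the cathelicidin of the mouse, whose cleaved peptide kills bacteria, read 7.07 and 6.90 on the arrays labelled KO and 7.13 and 7.37 on the WT arrays, a difference of −0.26 (standard error 0.15, adjusted p = 0.452). For both genes KO replicate 2 was the lowest and WT replicate 2 the highest array. *Ngp*, neutrophilic granule protein, read 6.69 and 6.73 on the arrays labelled KO and 6.47 and 7.04 on the WT arrays. The WT values lay on either side of the arrays labelled KO, and its difference of −0.050 (standard error 0.20, 95% interval −0.54 to 0.44) became 0.24 without WT replicate 2 and −0.34 without WT replicate 1, neither past the threshold. *Camp* and *Ngp* lie on chromosome 9 with 8 protein-coding genes between them in RefSeq, and *Ltf* and *Ngp* have 20 between them.

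Of the 4 azurophil granule genes, 2 had groups that did not overlap, a share like that of all genes (49.4% in either direction, 31.8% with KO below WT). *Mpo*, which makes hypochlorous acid from hydrogen peroxide, read 5.96 and 6.09 on the arrays labelled KO, against 6.26 and 6.27 on the WT arrays. *Elane*, neutrophil elastase, read 6.32 and 6.42 on the arrays labelled KO, against 6.65 and 6.55 on the WT arrays. In both, the arrays labelled KO lay below the WT arrays by a narrow margin, with differences of −0.24 (standard error 0.13, adjusted p = 0.440 from limma) for *Mpo* and −0.23 (standard error 0.13, adjusted p = 0.449) for *Elane*. *Ctsg*, cathepsin G, read 5.67 and 5.80 on the arrays labelled KO and 5.91 and 5.75 on the WT arrays. *Prtn3*, proteinase 3, read 6.75 and 6.91 on the arrays labelled KO and 6.96 and 6.72 on the WT arrays. The groups of both overlapped. The differences were −0.096 (95% interval −0.42 to 0.23) for *Ctsg* and −0.014 (95% interval −0.37 to 0.34) for *Prtn3*, and both turned positive with cyclic loess (0.038 and 0.080). *Elane* and *Prtn3*, which share their order of promoter patterns and have no protein-coding gene between them, thus read −0.23 and −0.014, and the gap between them was not tested.

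**Figure D2:**
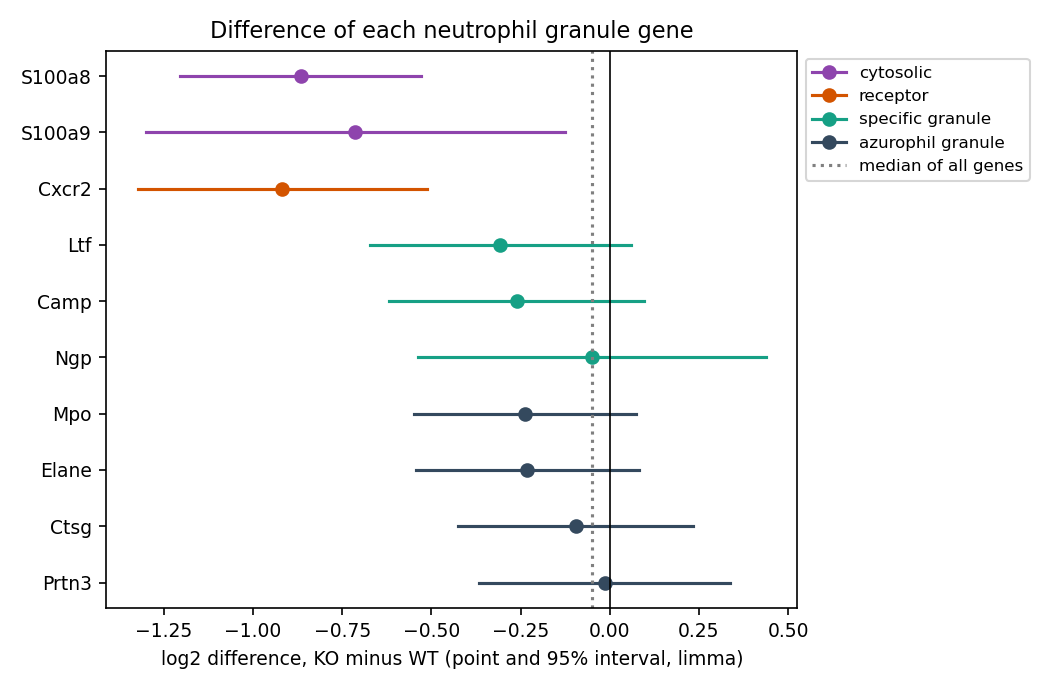
The log2 difference, KO minus WT, of each member (point) with its 95% interval from limma (line), coloured by the place of the protein in the cell; the dotted line is the median of all genes. The intervals of S100a8, S100a9 and Cxcr2 lie below 0, and those of the 7 genes of specific and azurophil granules span 0.

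By place in the cell, the median difference was −0.79 for the 2 cytosolic genes, −0.26 for the 3 genes of specific granules and −0.16 for the 4 genes of azurophil granules. These medians rest on few genes with no test between them. The arrays within a group differed by a median of 0.14 (KO) and 0.20 (WT) over the members, and by 0.12 (KO) and 0.20 (WT) over all genes. KO replicate 1 lay above KO replicate 2 for 5 of 10 members (78.3% of all genes), WT replicate 1 above WT replicate 2 for 5 (41.6%), and WT replicate 1 was the highest of the arrays for 5 and the lowest for 1, *Ngp* (35.0% and 37.0% of all genes). Over the members WT replicate 1 was thus more often the highest than the lowest array, which was not so over all genes. With WT replicate 1 left out, the members' median difference was −0.34, against −0.25 with all arrays.

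Other proteins of neutrophil granules were measured for 21 of the 25 genes listed, and 3 fell by limma's test while none rose (0.702% of all genes fell and 0.0802% rose). *Lcn2*, the siderophore-binding lipocalin 2 of specific granules, read 8.61 and 8.38 on the arrays labelled KO, against 11.64 and 11.91 on the WT arrays (log2 difference −3.28, standard error 0.16, adjusted p = 0.00256 from limma). *Lyz2*, lysozyme of myeloid cells and alveolar type II cells, had −1.76 (adjusted p = 0.00803), and *Hp*, haptoglobin, −1.19 (adjusted p = 0.0272). These 3 are also made by epithelia or other cells. *Pglyrp1*, a peptidoglycan-binding protein, had −1.13 (adjusted p = 0.0662) and *Mmp8*, neutrophil collagenase, −1.04 (adjusted p = 0.0957), neither past the threshold. *Mmp9*, gelatinase of the last granules to form, had −0.28 (adjusted p = 0.397), close to *Ltf* and *Camp*. The list had a median of −0.31, with 18 lower and 3 higher means and 13 of 21 genes with the arrays labelled KO wholly below the WT arrays (31.8% of all genes). The calls on *Lcn2*, *Lyz2* and *Hp* ended without KO replicate 1 (adjusted p = 0.123, 0.359 and 0.525) or KO replicate 2 (0.192, 0.506 and 0.861), where limma's calls over the whole table numbered 1 without KO replicate 1 and 0 without KO replicate 2.

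Surface and signaling genes of neutrophils were measured for 21 of 25, with 20 lower means (58.8% of all genes) and a median of −0.48, the lowest after that of the S100A8/A9 receptors and the pan-leukocyte genes among the lists here. None passed the test, 12 had an unadjusted p under 0.05, all lower (8.58% of all genes), and for 17 the arrays labelled KO lay below the WT arrays (31.8% of all genes). *Itgb2*, the beta chain shared by leukocyte integrins, had −0.93 (adjusted p = 0.0577 from limma), *Hdc*, which makes histamine, −1.02 (0.0612), and *Pilra*, an inhibitory receptor of myeloid cells, −1.13 (0.0616). *Clec4e*, a receptor for mycobacterial cord factor, had −0.75 (0.0825). *Itgb2* and *Pilra* passed with cyclic loess (adjusted p = 0.0268 and 0.0240). *Csf3r*, the receptor for G-CSF, which drives neutrophil production, had −0.57 (0.158). *Ly6g*, the surface antigen by which mouse neutrophils are sorted, read 5.46 and 5.32 on the arrays labelled KO, against 5.55 and 5.62 on the WT arrays, a difference of −0.19 (adjusted p = 0.519). *Csf3r* and *Ly6g* were picked for their roles after their values were seen.

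Genes listed for granulocyte formation were mostly transcription factors and cytokine receptors. Their median was −0.19, against −0.25 for the members and −0.051 for all genes. Of 18 measured, 13 had a lower and 5 a higher mean (58.8% and 41.2% of all genes). The arrays labelled KO lay wholly below the WT arrays for 11 (31.8%) and wholly above for 3 (17.6%). None passed limma's test (0.782%), and 5 lower had an unadjusted p under 0.05 (8.58%). *Cebpd*, a C/EBP factor of late stages, had −0.65 (adjusted p = 0.0956 from limma), *Csf2rb*, the common beta receptor chain, −0.77 (0.104), and *Irf8*, which favours monocytes over granulocytes, −0.58 (0.148). *Per3*, a clock gene that the counts above include, had the lowest difference of the list, −0.78 (adjusted p = 0.164 from limma). *Csf2rb* passed with cyclic loess (0.0402). *Cebpe*, needed for specific granules, had −0.27 (adjusted p = 0.473), picked for that role after its value was seen.

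Ligands and effectors around the set were lower in part. Of 6 genes listed as CXCR2 ligands, whose binding to CXCR2 was not measured here, *Cxcl15* fell. *Cxcl15*, the chemokine lungkine of mouse airway epithelium, read 12.07 and 11.92 on the arrays labelled KO against 13.41 and 13.37 on the WT arrays (log2 difference −1.40, standard error 0.13, adjusted p = 0.0150 from limma). The other 5 genes of that list were not called, and their differences ran from −0.52 for *Ppbp*, a platelet chemokine, to −0.016 for *Cxcl1*. Of 5 subunits of the NADPH oxidase, which makes superoxide, *Cybb* (−1.29, adjusted p = 0.0303) and *Ncf1* (−0.99, adjusted p = 0.0352) fell, while *Ncf4*, *Cyba* and *Rac2* were not called. Over all genes, 0.702% fell. Of 8 genes for receptors or co-receptors of S100A8 and S100A9, *Cd36*, a fatty acid receptor of capillaries and macrophages, fell (−1.04, adjusted p = 0.0291), with a list median of −0.53. *Ager*, which binds S100 proteins and also marks alveolar type I cells, had −0.85 (adjusted p = 0.0511). The calls on *Cxcl15*, *Cybb*, *Ncf1* and *Cd36* ended when either array labelled KO was left out. In the order of these lists, 6, 5 and 7 genes had a lower mean (58.8% of all genes). Wholly below the WT arrays were 4, 3 and 5 (31.8%).

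Of the genes that ripen or check the granule proteases, 12 were measured and none was called. Of these, 11 had a lower mean (58.8% of all genes), the median was −0.27, 8 lay wholly below the WT arrays (31.8%), and 5 lower had an unadjusted p under 0.05 (8.58%). *Ctsc*, cathepsin C, which activates elastase, cathepsin G and proteinase 3, had −0.48 (adjusted p = 0.182 from limma), and *Srgn*, the proteoglycan on which granules pack them, −0.44 (0.271). The protease inhibitors *Serpina3n* and *A2m* had −1.07 (0.117) and −0.43 (0.275).

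**Figure D3:**
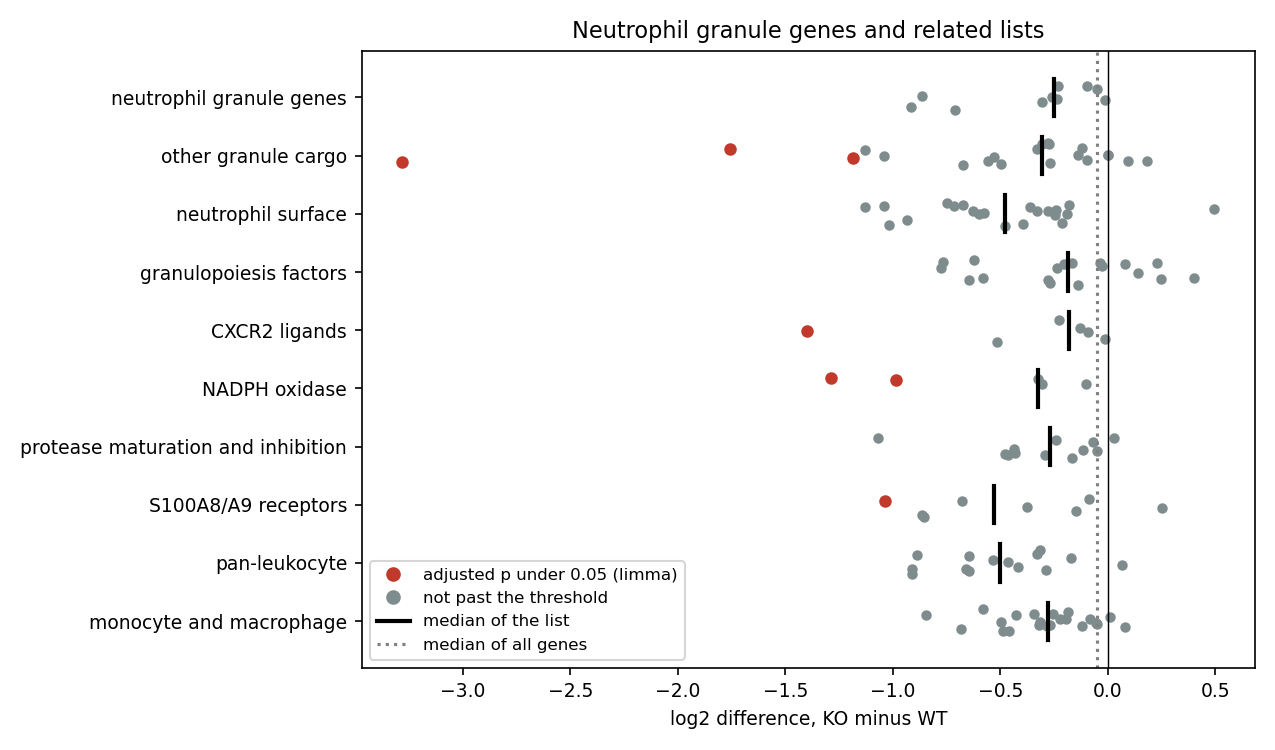
Each point is a gene of the named list, placed at its log2 difference, KO minus WT; red points have an adjusted p under 0.05, the black bar is the median of the list, and the dotted line the median of all genes. The neutrophil granule genes (median −0.25) hold no red point, and Lcn2 lies farthest left at −3.28.

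Markers of other blood cells were read beside the set. Genes shared by all leukocytes had a median of −0.50 over 14 measured, with 13 lower means (58.8% of all genes), 11 wholly below the WT arrays (31.8%), 0 called (0.782%) and 8 lower at an unadjusted p under 0.05 (8.58%). *Cd53*, a tetraspanin of leukocytes, had −0.89 (adjusted p = 0.0859 from limma), and *Ptprc*, the leukocyte antigen CD45, −0.91 (0.122). Their summed signal, as log2, was 13.21 and 13.05 in the arrays labelled KO and 13.38 and 13.72 in the WT arrays. That of the 10 members was 9.93 and 9.86 in the arrays labelled KO and 10.32 and 10.29 in the WT arrays, so both sums were lower in both arrays labelled KO. Markers of monocytes, which also make S100A8 and S100A9, and of macrophages had a median of −0.28 over 22 genes, with 20 lower means, 15 wholly below and 0 called, and 7 were lower at an unadjusted p under 0.05, beside the same shares of all genes. Their sum was 14.31 and 14.25 in the arrays labelled KO and 14.77 and 14.69 in the WT arrays. *Fn1*, a matrix gene that many other cells make, gave 62.5% of that gap on the linear scale, and without it the sum was 13.68 and 13.58 in the arrays labelled KO and 13.80 and 14.01 in the WT arrays. The smallest p in the list belonged to *Siglec1* (−0.85), *Mertk* (−0.58), *Fn1* (−0.68) and *Fcgr1* (−0.49), with adjusted p from 0.146 to 0.190 by limma. For these, both arrays labelled KO lay below both WT arrays. The groups overlapped for 7 genes, among them the complement genes *C1qa*, *C1qb* and *C1qc* and *Cd163* and *Folr2*, markers of tissue macrophages. The differences of these named genes ran from −0.081 for *Cd163* to 0.079 for *Folr2*. The other overlapping genes, *Lyve1* and *Ms4a7*, had −0.28 and −0.25. Further macrophage markers were among the genes wholly below the WT arrays: *Adgre1* (−0.46), *Mrc1* (−0.34), *Cx3cr1* (−0.31), *Csf1r* (−0.27) and *Vsig4* (−0.20). The part of these cells in the levels of the members was not tested.

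Lists of the remaining blood lineages had medians closer to that of all genes. They were −0.18 for megakaryocytes and platelets (10 genes), −0.16 for B cells (11) and −0.16 for the erythroid lineage (12). T and NK cells (15) and granulocyte and monocyte progenitors (11) had −0.12 each, mast cells and basophils (13) −0.092, and eosinophils (7) −0.035. In that order, 6, 5, 7, 6, 4, 7 and 1 genes had the arrays labelled KO wholly below the WT arrays (31.8% of all genes). Wholly above were 2 erythroid, 2 progenitor and 3 mast cell and basophil genes (17.6%). No gene of these lists passed limma's test (0.782%), and 9 were lower and 2 higher at an unadjusted p under 0.05 (8.58% and 5.88%). Some genes of these lists read low, among them the eosinophil receptor gene *Il5ra* (means of 4.81 in KO and 4.85 in WT). With no detection call, a difference near 0 cannot be told there from a gene that is not expressed. Of the mast cell and basophil genes, 9 of 13 had a lower mean, among them *Gata2* (−0.52, adjusted p = 0.202 from limma). *Cpa3*, a mast cell protease, had a higher mean (0.69, adjusted p = 0.301). Of the erythroid genes, 10 of 12 had a lower mean, among them *Alas2* (−0.66, adjusted p = 0.0873). *Hbb-y*, an embryonic globin, had 1.23 (adjusted p = 0.106). *Epx*, the eosinophil relative of *Mpo*, read 6.07 and 6.11 on the arrays labelled KO and 6.15 and 6.09 on the WT arrays, overlapping. Among epithelial markers, *Scgb1a1*, a secretory protein of club cells, fell (−2.69, adjusted p = 0.00283), as did the surfactant gene *Sftpa1* (−1.10, adjusted p = 0.0258), with a median of −0.089 over 15 genes (0.782% of all genes were called), and both calls ended when either array labelled KO was left out. Of the 15, 6 had a higher mean in the arrays labelled KO, among them *Epcam*, an adhesion protein of epithelia (0.69, adjusted p = 0.178), and *Etv5*, a factor of distal tips (0.41, adjusted p = 0.232).

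**Figure D4:**
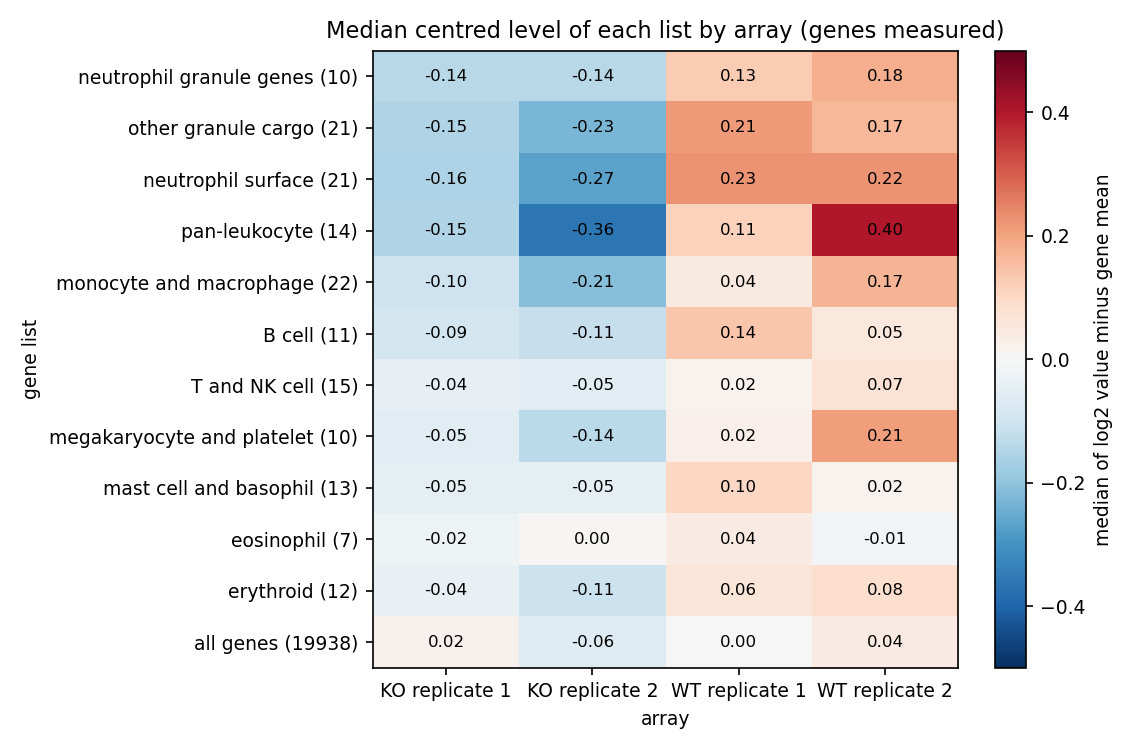
Each cell gives, for a gene list (row, number of genes in brackets) and an array (column), the median of the log2 values after subtracting each gene's mean over the arrays. The neutrophil granule genes read −0.14 and −0.14 in the arrays labelled KO and 0.13 and 0.18 in the WT arrays, and the pan-leukocyte genes −0.15 and −0.36 in the arrays labelled KO and 0.11 and 0.40 in the WT arrays.

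The members' centred median was −0.14 in both KO replicates and their centred mean was −0.16 in KO replicate 1 and −0.21 in KO replicate 2, while the median over all genes was 0.023 in KO replicate 1 and −0.063 in KO replicate 2. The 5 genes outside the set with values nearest to the members' mean centred profile over the 4 arrays were *Cd14*, *Pitpnc1*, *Ccdc190*, *Itprid2* and *Sod3*, at distances of 0.012 to 0.025 log2 units. *Cd14*, a co-receptor for lipopolysaccharide on monocytes and neutrophils, came nearest, reading 7.25 and 7.19 on the arrays labelled KO and 7.62 and 7.57 on the WT arrays. With 4 arrays and 19938 genes, near profiles are many, and the likeness is a description.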

How the data were processed

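RNA from E18.5 lung was hybridised to Affymetrix arrays, 2 *Hmga2*-/- and 2 *Hmga2*+/+. The table deposited by the authors holds log2 expression for 30177 probe sets. The submitters' processing notes name RMA and Affymetrix Expression Console without versions. The values were used without further normalization. Platform annotation names 21789 probe sets by 1 symbol, 1621 by several and 6767 by none, and each of 19938 genes was read from its probe set with the highest mean among those with 1 symbol.

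Groups were compared as KO minus WT with limma 3.58.1 in R 4.3.3 (lmFit, eBayes without trend, prior degrees of freedom 4.42), adjusted by Benjamini and Hochberg over all genes at 0.05. The fit was tested on simulated data with normal noise and no outlying array, where 22 of 218 called genes were unchanged. Figures used matplotlib 3.10.9.

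The members and the 17 other lists, 231 of 264 genes measured over all 18, were chosen with earlier results of these data known. Named genes are the members, *Hmga2*, genes of each list that pass or up to 4 with the smallest p, and the 5 nearest profiles. *Ager*, *Ppbp*, *Cxcl1*, *Pglyrp1*, *Mmp8*, *Mmp9*, *Csf3r*, *Ly6g*, *Cebpe*, *Sftpc*, *Ncf4*, *Cyba*, *Rac2*, *Epx*, *Epcam*, *Etv5*, *C1qa*, *C1qb*, *C1qc*, *Cd163*, *Folr2*, *Lyve1*, *Ms4a7*, *Adgre1*, *Mrc1*, *Cx3cr1*, *Csf1r* and *Vsig4* fall outside the rule, picked with their values already seen. The number of arrays limits the precision.

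Settings varied 1 at a time were a block for the replicate number, array medians set equal, cyclic loess, removal of the dimmest 40 percent of genes, averaging probe sets, trend and robust moderation, leaving out each array, a threshold of 0.10 and treat against 1.2-fold. The sum without *Fn1* was added with values seen. Leaving out 1 array leaves a lone array, assumed to vary like the other group.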

Additional observations from a re-analysis of the deposited data

How the results depend on the processing

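Of the 10 neutrophil granule genes, limma called 0 with all arrays, 0 against a 1.2-fold limit with treat, 1 with array medians centred (*S100a8*), 1 with cyclic loess (*S100a8*), 2 with trend and robust moderation and 2 at an adjusted p under 0.10 (*S100a8* and *Cxcr2* in both). Only 1 member, *S100a8*, stayed in without the dimmest 40 percent of genes, and it passed, so the median there, −0.87, is that of 1 gene. The low levels of the other 9, with no call of signal over background, limit what the arrays can show. Leaving out 1 array gave 0 to 3 called members and medians from −0.34 to −0.23, and counts over all genes from 0 to 6292: 2 members without WT replicate 1 and 3 without WT replicate 2, where all genes gave 1638 and 6292, and 0 without KO replicate 1 or KO replicate 2, where all genes gave 1 and 0. The count of 156 over all genes (16 higher, 140 lower) became 294 with medians centred (73 higher, 221 lower), 350 with cyclic loess (80 higher, 270 lower), 301 without the dimmest genes, 457 at 0.10 and 52 with treat. The members' median was −0.25 with all arrays and −0.15 with cyclic loess.

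With the replicate number as a block, limma called 2 members (*S100a8*, adjusted p = 0.0294, and *Cxcr2*, adjusted p = 0.0211) and 602 genes. Same-numbered arrays deviated in opposite directions over genes (r = −0.24). Shifts of whole arrays enter that value, so it does not settle whether the numbers pair the samples. A crossed block, chosen after the values were seen, called 1 member and 512 genes.

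Signs turned with cyclic loess for *Ngp* (0.050), *Ctsg* (0.038), *Prtn3* (0.080), *Hmga2* (−0.0058) and the eosinophil receptor gene *Il5ra* (0.11). Leaving out 1 array gave −0.13 (WT replicate 2) to 0.10 (WT replicate 1) for *Prtn3*, with 0.063 without KO replicate 1, and −0.076 (KO replicate 1) to 0.18 (KO replicate 2) for *Hmga2*, with −0.069 without WT replicate 1. For *Il5ra* it gave −0.096 (KO replicate 1) to 0.011 (KO replicate 2), and *Ngp* read 0.24 without WT replicate 2. Of 697 values of 73 named genes under these settings, 572 kept their sign and side of the threshold, 96 newly passed, 18 no longer passed and 11 changed sign. Most of those that newly passed came from leaving out a WT array, where the lone WT array was assumed to vary like the other group.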
